A study of Mus musculus with 12 samples.

Results

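Galectins are lectins that bind beta-galactosides on cell surface glycans and crosslink the glycoproteins that carry them. The vertebrate family falls into prototype members with a single carbohydrate-binding domain (Lgals1, Lgals2 and Lgals7), the chimera-type Lgals3, which joins such a domain to a collagen-like tail, and tandem-repeat members with linked domains (Lgals4, Lgals8, Lgals9 and Lgals12). In skin, Lgals7 is known as a protein of stratified epithelium, and Lgals3 of keratinocytes and macrophages.

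The galectins here were all probe sets of the array table whose RefSeq accession belongs to a mouse gene named Lgals followed by a digit. The rule found 8 genes, each with 1 probe set, among 908 named genes and 1246 probe sets. The rule uses gene names and no measured value, but it was chosen with earlier results of these data known. The names of 5 of the 8 probe sets (Lgals7, Lgals3, Lgals1, Lgals4 and Lgals9) carry the suffix that marks probes shared by several transcripts. Lgals4 has a near-identical relative in some mouse strains, Lgals6. The Lgals4 value could hold both only where the strain carries Lgals6, which was not tested.

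The 12 mouse samples were non-wounded (4 samples), or taken 0 h (1), 30 min (2), 2 h (4) and 4 h (1) after wounding. Sample names begin with B6; no age, sex or agent is stated for any group, and wounding is the single difference that the labels name. The design text plans RNA of whole epidermis under both conditions, to follow early responses of keratinocytes and to look for the ligand of the epidermal T cell receptor, while the labels call every sample dendritic epidermal T cells. Values are the deposited log2 expression values, made by RMA, and the labels do not tell whether replicates are different mice. The p-values therefore rest on sample-to-sample spread that could be technical only.

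Each group holds 1 sample numbered 1 in its title, and these 5 differed from the 7 numbered 2 to 4 in the scale of their values. The SD over the table was 1.55 to 1.85 in samples numbered 1 and 2.19 to 2.30 in the others. Among the brightest 25% of probe sets the median difference of the samples numbered 1 from the others was -1.22, and among the dimmest 25% it was 0.48. For 43.9% of all probe sets the 2 sets of samples did not overlap (17.6% with the samples numbered 1 lower). Lgals3 and Lgals8 were among these 17.6%. Lgals3 was at 10.11 to 10.52 in the samples numbered 1 and at 11.24 to 11.63 in the others, and Lgals8 was at 5.46 to 6.24 and at 6.83 to 7.43. The 0 h and 4 h groups consisted of such a sample alone.

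The labelled cell type was set against markers. Of 12 markers of dendritic epidermal T cells, 5 were measured (Klrk1, Il2rb, Itgae, Cd69 and Il7r), and the log2 of their summed level was 6.22 to 7.17 over all groups. For 8 of 14 keratinocyte markers it was 9.57 to 11.67, and for 5 of 10 markers of Langerhans and other antigen presenting cells 10.09 to 11.59. Endothelial, neutrophil and macrophage markers, which the lists also hold, were read the same way, at 4.86 to 5.58, 8.25 to 10.50 and 6.82 to 8.31. Non-wounded means of single T cell markers ran from 2.38 for Klrk1 to 5.32 for Itgae, those of the Langerhans list from 3.96 for Ccr6 to 10.78 for Cd74, with Cd207 at 7.86, and those of keratinocyte markers from 2.87 for Areg to 9.78 for Fgfr2. RMA gives no zero and no detection call, so no marker can be said to be at 0. None of the listed CD3 or T cell receptor chains was among the measured markers. Signals of keratinocyte and Langerhans cell genes were thus present beside those of T cell genes. Probes and list sizes differ, so these levels do not rank the cell types, and the makeup of the samples was not tested.

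The promoters of the brightest galectins are shown because both genes stood near the top of the table in every sample. The 250 bases before the RefSeq start site (build GRCm38.p6, plus strand for both genes) lie at chr7:28864136-28864385 for Lgals7 and at chr14:47373610-47373859 for Lgals3. Capitals mark the GC box (GGGCGG on either strand).

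Lgals7: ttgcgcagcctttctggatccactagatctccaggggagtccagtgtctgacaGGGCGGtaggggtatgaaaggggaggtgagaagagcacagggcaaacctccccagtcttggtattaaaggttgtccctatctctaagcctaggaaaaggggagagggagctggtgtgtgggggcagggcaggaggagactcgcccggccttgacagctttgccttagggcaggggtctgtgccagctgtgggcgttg
Lgals3: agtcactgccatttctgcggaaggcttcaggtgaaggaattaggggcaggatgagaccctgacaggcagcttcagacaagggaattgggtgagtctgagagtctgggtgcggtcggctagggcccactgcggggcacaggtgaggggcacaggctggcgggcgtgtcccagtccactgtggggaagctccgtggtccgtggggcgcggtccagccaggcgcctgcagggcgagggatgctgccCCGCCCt

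Counted from the start site, the first base of the GC box was at -197 in Lgals7 and, on the minus strand, at -7 in Lgals3. No TATA box (TATAAA, both strands) and no AP-1 element (TGANTCA, which reads the same on both strands) was found in either window, and no motifs overlapped. Among 32851 windows of the same length in the RefSeq promoter table, 32.7% held the GC box, 12.4% the TATA box and 6.75% the AP-1 element. Windows for 6 of the 8 galectins were in that table (not Lgals1 or Lgals12), and the other 4 held none of these letters. A match is only a match of letters.

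At rest, Lgals7 and Lgals3 gave by far the brightest galectin signals. Lgals7 had log2 levels of 11.83, 12.27, 12.36 and 11.86 in non-wounded samples 1 to 4, a mean of 12.08 ± 0.27 (SD, n = 4). Lgals3 had 10.25, 11.57, 11.48 and 11.24, a mean of 11.14 ± 0.61. In the whole table Lgals7 ranked 2 of 1246 in 10 of the 12 samples and 4 in the other 2 (30 min and 2 h, both numbered 1), and Lgals3 ranked between 4 and 11.

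A middle group of 4 galectins followed, with overlapping ranges. Lgals1, a galectin of connective tissue and immune cells, had a mean log2 level of 7.03 ± 0.58 (SD, n = 4 here and below). Lgals8, which binds glycans exposed on damaged vesicles, was at 6.79 ± 0.91. Lgals4, best known from gut epithelium, was at 6.33 ± 0.38, and Lgals9, a ligand of the receptor Havcr2, at 5.88 ± 0.82. The adjacent pairs among these 4 did not differ beyond their spread, since the ranges of each pair overlapped.

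The dimmest were Lgals12, known from fat cells, at 3.60 ± 0.10 and Lgals2, known from the gut, at 3.28 ± 0.11. Both lay below the middle of their own sample's values in all 12 samples, at the 25.2 to 48.6 percentile for Lgals12 and the 22.3 to 47.0 percentile for Lgals2. Of the 7 steps in this order, 4 separated genes whose non-wounded ranges did not overlap: Lgals7 over Lgals3 (a mean difference of 0.94), Lgals3 over Lgals1 (4.11), Lgals9 over Lgals12 (2.28) and Lgals12 over Lgals2 (0.33). Probe sets also differ in how well their probes bind, so the order of signals is not an order of transcript numbers.

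**Figure D1:**
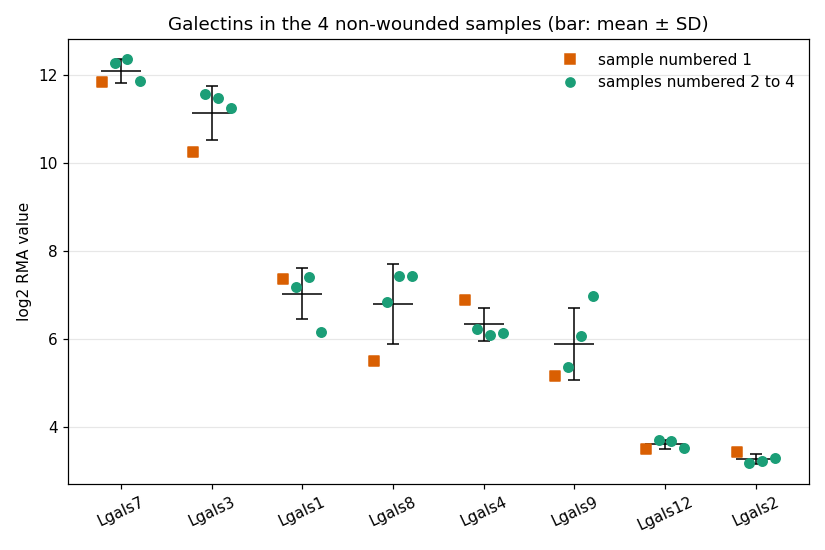
Log2 RMA values (y axis) of the 8 galectin probe sets (x axis, ordered by mean) in the 4 non-wounded samples; squares are the sample numbered 1, circles those numbered 2 to 4, and bars the mean ± SD. The lowest value of Lgals3, 10.25, lies above the highest value among the 6 dimmer galectins, 7.43, and Lgals12 and Lgals2 lie below 4.

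The order at both ends held after wounding. Lgals7 was first and Lgals3 second among the 8 galectins in all 12 samples, and Lgals12 and Lgals2 took the last 2 places in all 12. By group mean, Lgals1 had rank 3 in non-wounded, 0 h and 2 h samples, rank 5 at 30 min and rank 4 at 4 h. Lgals2 was above Lgals12 at 2 h and 4 h and below it in the other groups.

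**Figure D2:**
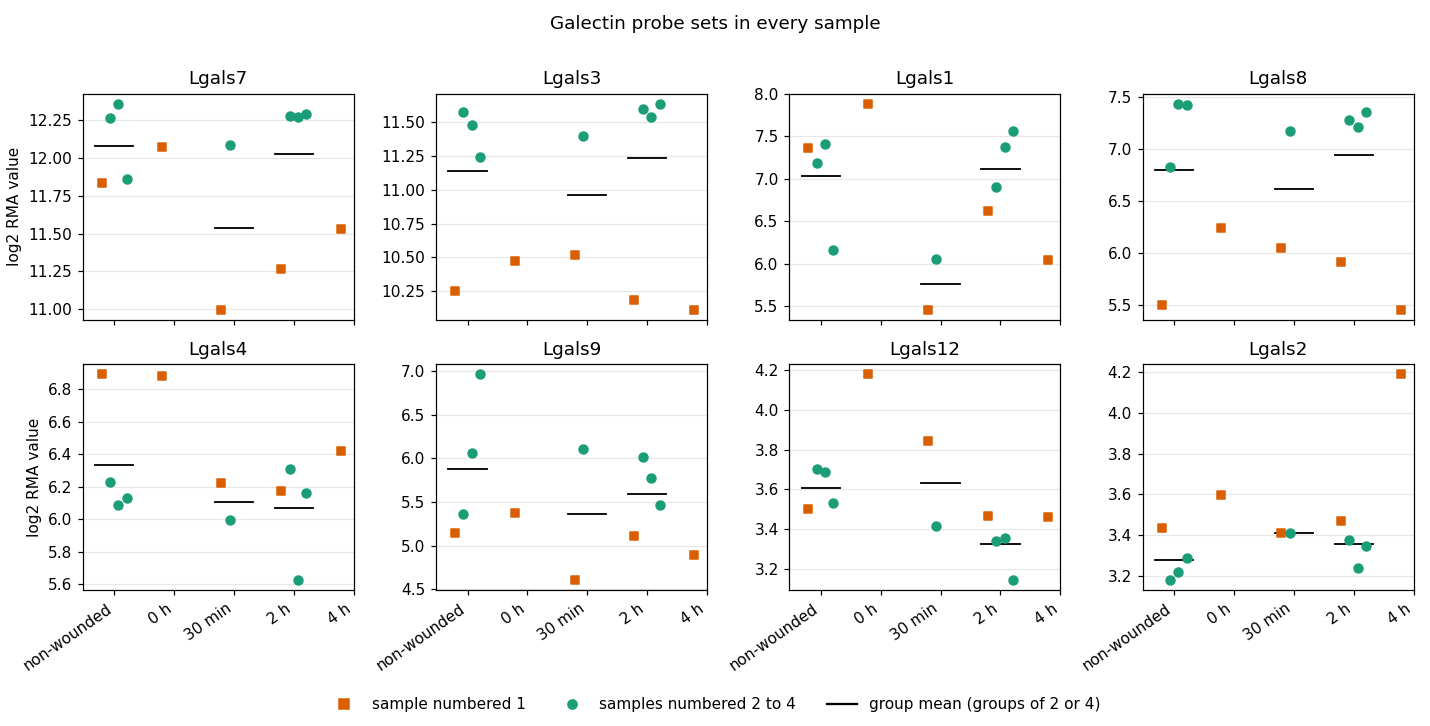
Log2 RMA value of each galectin (y axis, own scale per panel) in every sample, by group (x axis); squares are samples numbered 1, circles those numbered 2 to 4, and bars the means of groups with 2 or 4 samples. Lgals1 is lowest at 30 min (5.46 and 6.05), while in Lgals3 and Lgals8 every square lies below all circles of the panel.

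No galectin passed the test in any of the 3 replicated comparisons. The test was limma over all 1246 probe sets, called at a Benjamini-Hochberg adjusted p under 0.05. In that fit 3 probe sets (0.241%) passed at 2 h against non-wounded, 0 (0%) at 30 min against non-wounded and 0 (0%) at 2 h against 30 min. At an unadjusted p under 0.05 the counts over all probe sets were 58 (4.65%), 63 (5.06%) and 27 (2.17%), and among the 8 galectins 0, 1 and 1, each time Lgals1. The 30 min and 2 h comparisons share the non-wounded samples. Both Lgals1 results, at 30 min against non-wounded and at 2 h against 30 min, rest on the same 30 min samples and are not separate findings.

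Lgals1 was the galectin with the largest difference at 30 min. Its log2 levels were 5.46 and 6.05 in the 30 min samples numbered 1 and 2, against 7.36, 7.18, 7.41 and 6.17 in non-wounded samples 1 to 4. Both 30 min values lay below all 4 non-wounded values, the nearest being non-wounded sample 4. The groups failed to overlap in this downward direction for 5.14% of all probe sets.

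In the fit, the log2 difference of Lgals1 at 30 min was -1.27 ± 0.40 (SE), with a 95% interval of -2.17 to -0.38, or 0.414 times the non-wounded level. Its unadjusted p was 0.0101, rank 7 of 1246, and its limma adjusted p was 0.735. With the replicate number as a block the difference was -1.22 (limma adjusted p = 0.432). The difference was -1.90 within number 1 and -1.13 within number 2. It kept its sign in every alternative run, with limma adjusted p of 0.097 (without 30 min replicate 2) to 0.999.

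Lgals1 at 2 h lay above Lgals1 at 30 min in every sample. The 2 h samples 1 to 4 had log2 levels of 6.62, 6.91, 7.37 and 7.56, all above the 2 values at 30 min. Such upward separation occurred in 3.77% of all probe sets. The difference was 1.36 ± 0.40 (SE, 95% interval 0.46 to 2.25, limma adjusted p = 0.621), and 1.16 within number 1 and 0.85 within number 2.

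Against the non-wounded samples, the 2 h level of Lgals1 differed by 0.084 ± 0.33 (SE, limma adjusted p = 0.998), with a 95% interval of -0.65 to 0.81. Within numbers 1 to 4 the differences were -0.74, -0.28, -0.043 and 1.40, so 3 of the 4 numbers had a lower value at 2 h and number 4 a higher one. Non-wounded sample 4 held the lowest Lgals1 level of its group, and without it the difference was -0.20.

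The single samples at 0 h and 4 h, both numbered 1, held Lgals1 log2 levels of 7.88 and 6.05, beside 7.36 in the non-wounded sample numbered 1. The 0 h value was the highest Lgals1 level of all 12 samples, and the 4 h value was below all non-wounded and all 2 h values. By place within its sample, the 4 h value was at the 83.0 percentile, inside the non-wounded range of 73.1 to 91.1. Its difference from the non-wounded mean was -0.98, and -0.53 after every sample was brought to a common median and SD. These samples have no replicate and no test.

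Markers of other cell types were read beside the Lgals1 values at 30 min, as log2 of the summed level of each list. The 8 keratinocyte markers were at 10.09 and 11.55 in the 30 min samples and at 10.43 to 11.67 in non-wounded ones. The 5 Langerhans cell markers were at 10.29 and 11.21, and at 10.51 to 11.48. The 8 measured dermal fibroblast markers, of 10, were at 6.94 and 7.48, and at 6.62 to 7.03. The 5 T cell markers were at 6.50 and 6.54, and at 6.52 to 6.85. Markers of endothelium (4 of 9 measured), neutrophils (5 of 8) and macrophages (6 of 9) lay at 5.14 and 5.19, 8.25 and 9.98, and 7.65 and 8.01 at 30 min, against 4.86 to 5.18, 8.33 to 10.34 and 7.70 to 8.31 in non-wounded samples. A sum follows its brightest marker, which for neutrophils was Il1r2 (7.98 and 9.91 at 30 min). In the fit without the block, 3 of the 5 neutrophil markers were above 0 at 30 min and 2 below. The median of these 5 was 0.22, beside 0.038 over all probe sets. The part of all these cell types in the Lgals1 values was not tested. In bulk RNA, fewer cells of a type and less RNA per cell cannot be told apart.

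Lgals7, the other prototype galectin of the epidermis, kept a high signal throughout. Its log2 levels at 2 h were 11.26, 12.28, 12.27 and 12.29 in samples 1 to 4. At 30 min they were 11.00 and 12.08, at 0 h 12.07 and at 4 h 11.53. The 3 lowest values, between 11.00 and 11.53, all came from samples numbered 1 taken at 30 min, 2 h and 4 h, whose values spread least over the table.

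The 2 h difference of Lgals7 from non-wounded was -0.052 ± 0.31 (SE, limma adjusted p = 0.998), with a 95% interval for the ratio of 0.594 to 1.57. At 30 min it was -0.54 ± 0.38 (limma adjusted p = 0.737), and within numbers 1 and 2 it was -0.84 and -0.18. After every sample was brought to a common median and SD the 30 min difference was 0.45, so its direction depended on the scaling. At 4 h Lgals7 differed by -0.30 from the non-wounded sample numbered 1 and by -0.55 from the non-wounded mean, which turned to 1.80 on the common median and SD.

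Lgals2, the dim prototype member, varied least of the 8 within groups. Its residual SD of 0.0971 was smaller than that of all but 0.482% of the probe sets, whose median was 0.361. The single 0 h and 4 h samples add nothing to this SD. Around the mean of all 12 samples its root mean square was 0.256, beside 0.259 for Lgals12. Lgals2 was at 3.24 to 3.47 in 2 h samples and at 3.18 to 3.43 in non-wounded samples, a difference of 0.077 ± 0.14 (SE, limma adjusted p = 0.998). At 30 min it was at 3.41 in both samples. The 4 h sample had 4.19, the highest Lgals2 level of all, 0.76 above the non-wounded sample numbered 1.

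Lgals3, which binds branched N-glycans and forms lattices with them, separated by sample number in the non-wounded, 30 min and 2 h groups. At 2 h its log2 levels were 10.18, 11.60, 11.54 and 11.63 in samples 1 to 4, and at 30 min 10.52 and 11.40. The 2 h difference from non-wounded was 0.10 ± 0.41 (SE, limma adjusted p = 0.998). The block removed much of that spread: the same difference then had a 95% interval of -0.24 to 0.44, and the limma adjusted p was 0.799. At 30 min the difference was -0.18 ± 0.50 without the block and 0.11 ± 0.20 with it, neither called (limma adjusted p = 0.911 and 0.83).

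Of the tandem-repeat galectins, Lgals8 had the widest spread, with a residual SD of 0.803. Its 2 h levels were 5.92, 7.28, 7.21 and 7.35, against 5.50, 6.83, 7.43 and 7.42 in non-wounded samples 1 to 4. Here too sample 1 was the low one in both groups. The difference was 0.15 ± 0.50 (SE, limma adjusted p = 0.998), or 0.15 ± 0.16 with the block (0.733).

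Lgals9 was at 5.11, 6.02, 5.78 and 5.47 in the 2 h samples, against 5.15, 5.36, 6.06 and 6.97 in the non-wounded ones. The differences within numbers 1 to 4 were -0.035, 0.66, -0.28 and -1.50, with no common direction. The fitted difference was -0.29 ± 0.45 (SE, limma adjusted p = 0.998). Non-wounded sample 4, the lowest of its group for Lgals1, was the highest for Lgals9.

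Lgals4 was at 6.17, 6.31, 5.63 and 6.16 at 2 h, against 6.89, 6.23, 6.08 and 6.13 in non-wounded samples, a difference of -0.27 ± 0.23 (SE, limma adjusted p = 0.998). Its highest values, 6.89 and 6.88, were those of the non-wounded and 0 h samples numbered 1. In contrast to Lgals3 and Lgals8, it averaged 0.44 higher in the samples numbered 1 than in the others.

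Lgals12 was the galectin whose 2 h and non-wounded values did not overlap. It was at 3.46, 3.34, 3.36 and 3.14 in 2 h samples 1 to 4, against 3.50, 3.70, 3.69 and 3.53 in the non-wounded ones, and lower within each number. Downward separation of this kind was found for 2.73% of all probe sets. The difference of -0.28 ± 0.16 (SE) did not pass (unadjusted p = 0.106, limma adjusted p = 0.998, and 0.457 with the block). The 0 h sample had the highest value, 4.18.

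**Figure D3:**
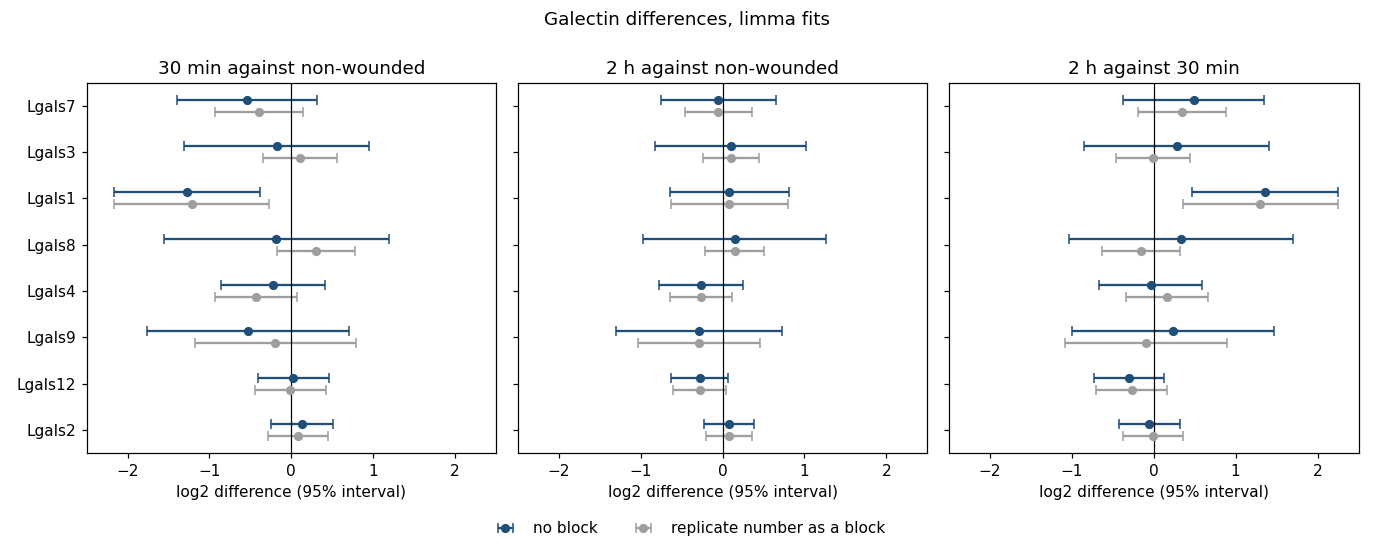
Log2 differences (x axis, points) with 95% intervals (bars) of the 8 galectins (y axis) at 30 min against non-wounded, 2 h against non-wounded and 2 h against 30 min, from limma without (blue) and with (grey) the replicate number as a block. The intervals of Lgals1 lie below 0 at 30 min (-2.17 to -0.38 without the block) and above 0 for 2 h against 30 min (0.46 to 2.25), before adjustment over the table; no adjusted p passed.

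The family did not move as one. At 2 h against non-wounded, 4 galectins were above 0 and 4 below, with a median log2 difference of 0.012, beside 0.025 over all probe sets, of which 54.5% were above 0. At 30 min 2 were above and 6 below, with a median of -0.20, beside 0.038 over all probe sets, of which 53.8% were above 0. The 30 min median became -0.10 with the block. After samples were brought to a common median and SD it was -0.069, while the median over all probe sets moved to -0.088. At 2 h against 30 min 5 were above 0 and 3 below, with a median of 0.26, beside 0.0054 over all probe sets, of which 50.6% were above 0, and that median was -0.0080 with the block.

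For the single samples, a log2 difference of 1 or more outside the non-wounded range was described. None of the 8 galectins met it at 0 h, where 0.963% of all probe sets did upward and 5.38% downward. At 4 h Lgals3 (10.11, a difference of -1.02) and Lgals8 (5.46, -1.34) met it downward, as did 17.3% of all probe sets, while 6.18% met it upward. After samples were brought to a common median and SD, 2 galectins met the limit, both upward: Lgals1 at 0 h (1.15) and Lgals7 at 4 h (1.80). The share of all probe sets that met the limit on that scale was not counted, so this count is not a result about the galectins. On that scale Lgals3 and Lgals8 at 4 h differed by 0.90 and -0.98, and Lgals7 at 0 h by 0.97. Against the non-wounded sample numbered 1 alone, Lgals3 differed by -0.14 and Lgals8 by -0.042. Lgals1 was then the 1 galectin past the limit, at -1.31, beside 8.51% of all probe sets downward and 3.29% upward.

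Place within a sample does not depend on the sample's scale. Lgals1 stood at the 75.0 and 72.6 percentile in the 30 min samples, against 91.1, 81.4, 83.2 and 73.1 in non-wounded samples 1 to 4, so by this measure the 2 groups overlapped. In the 2 h samples it stood at 88.7, 80.4, 84.8 and 85.9. Lgals8 lay between the 71.3 and 84.1 percentile and Lgals9 between 57.4 and 80.0 over all 12 samples. Lgals4 was at 84.1 to 87.3 in the samples numbered 1 and at 68.7 to 74.2 in the others. Lgals12 stood at 26.2 to 34.2 in the 2 h samples and at 30.5 to 43.8 in the non-wounded ones, so by place these groups overlapped as well.

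**Figure D4:**
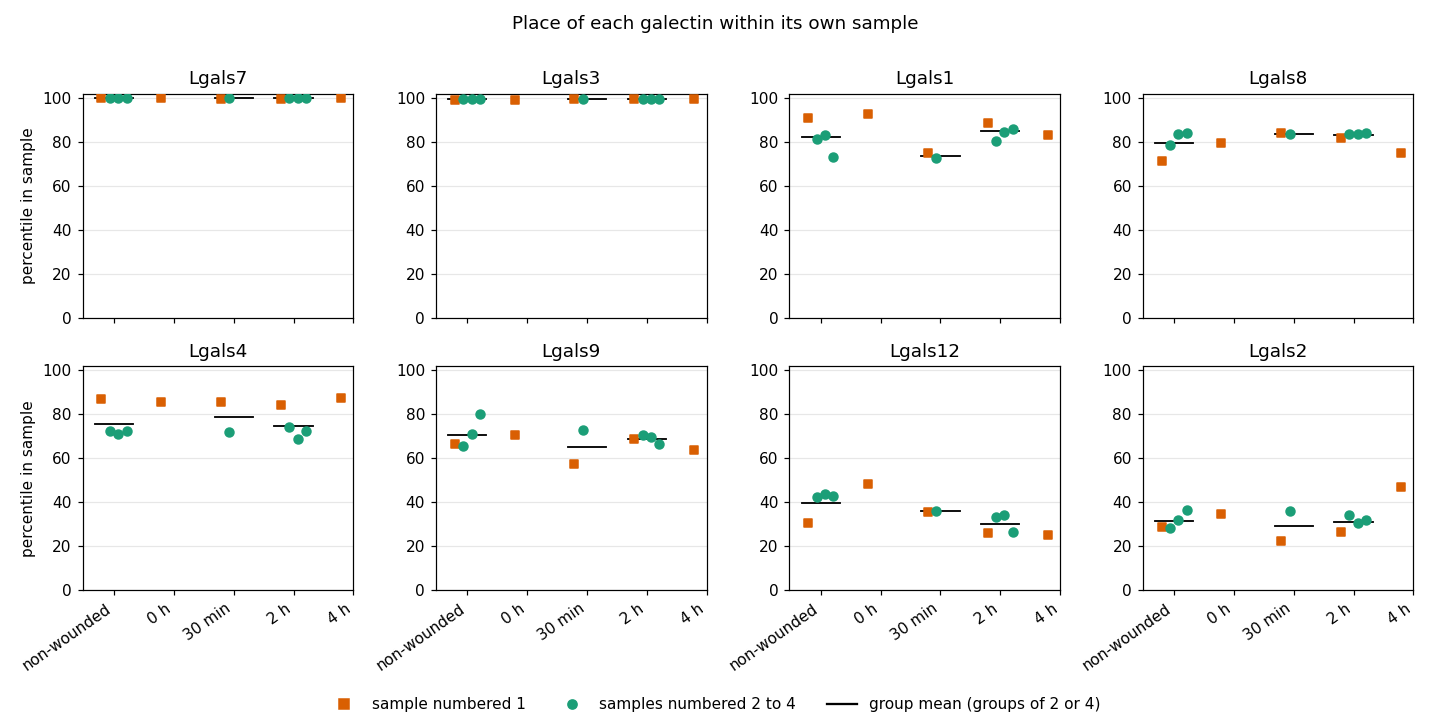
Percentile of each galectin among the 1246 probe sets of the same sample (y axis) by group (x axis), with squares for samples numbered 1, circles for those numbered 2 to 4 and bars for means of groups with 2 or 4 samples. Lgals7 and Lgals3 stay above the 99 percentile in every sample, and Lgals1 stands at 75.0 and 72.6 at 30 min.

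Genes with a course like those of the galectins were sought by the root mean square difference between log2 values centred on each gene's mean, over the 12 samples. Nearest to Lgals1 were Cspg4, a membrane proteoglycan (0.37), Col18a1, a collagen of basement membranes (0.41), and Large2, a glycosyltransferase of dystroglycan (0.47). The root mean square of Lgals1 around its own mean was 0.72. Cspg4 was at 5.81 and 6.56 at 30 min, against 7.54, 7.41, 6.88 and 6.41 in non-wounded samples 1 to 4, where the groups overlapped.

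Nearest to Lgals7, whose own root mean square was 0.43, were Ddost, a subunit of the complex that attaches N-glycans (0.18), Hs2st1, a heparan sulfate sulfotransferase (0.21), and the signalling ligand Wnt4 (0.22). All 3 had their low values in the samples numbered 1 at 30 min, 2 h and 4 h, as Lgals7 did. Non-wounded sample 1 was also the lowest of its group for Hs2st1 (5.30, against 5.95 to 6.52 in the other 3) and Ddost (6.46, against 6.78 to 7.28). For Wnt4 it was not. All 12 points of each profile share their arrays, so the difference in spread between sample numbers is part of this likeness.

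**Figure D5:**
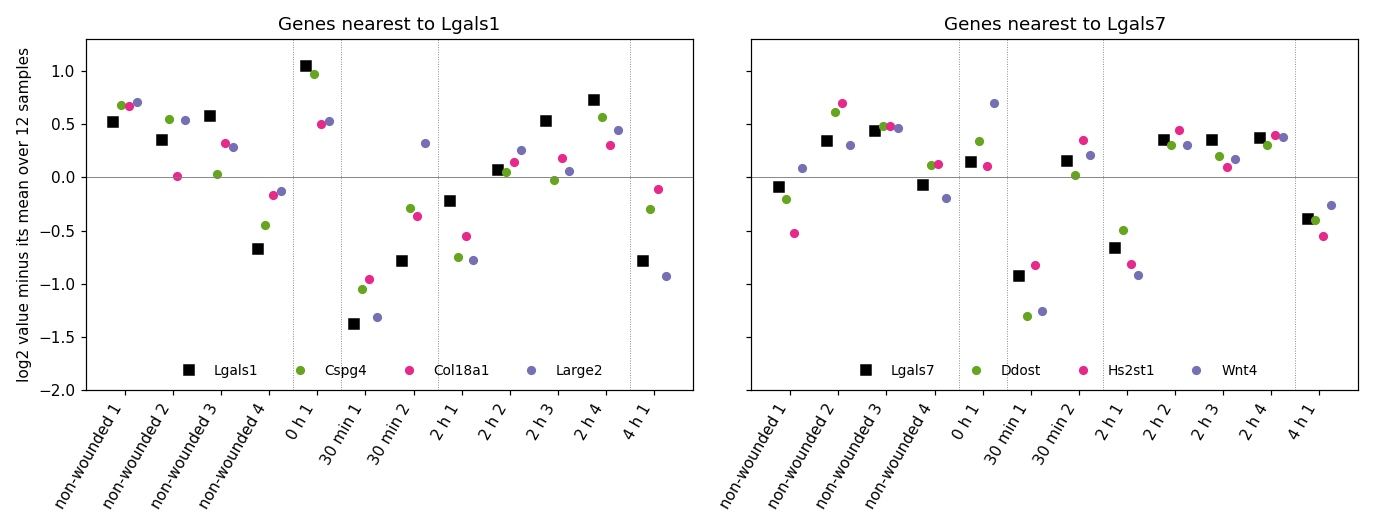
Log2 value minus the gene's mean over 12 samples (y axis) in each sample (x axis; dotted lines part the groups) for Lgals1 (left, black squares) and Lgals7 (right, black squares) and the 3 genes nearest to each (circles). Lgals1 and its neighbours are lowest in the 30 min sample numbered 1, and Lgals7 and its neighbours are low in the samples numbered 1 at 30 min, 2 h and 4 h.

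Genes around the galectins were read in 3 lists. At 2 h against non-wounded without the block, 0.241% of all probe sets passed and 4.65% had an unadjusted p under 0.05. Of all probe sets 54.5% were above 0 there, and their median difference was 0.025. Of 14 measured galectin partners and counter-receptors (of 30 listed), 0 passed at 2 h against non-wounded without the block and 1 had an unadjusted p under 0.05. This was Havcr2, the receptor bound by Lgals9, at 5.47, 5.29, 5.45 and 5.62 in 2 h samples, against 4.50, 4.60, 4.73 and 4.84 in non-wounded ones. Its difference of 0.79 ± 0.17 (SE) had a limma adjusted p of 0.144, and of 0.0448 with the block, where 1.36% of all probe sets passed. In the samples numbered 2 to 4 alone, where 3.05% passed, it was 0.0258, and over all alternatives it reached 0.479. The groups separated upward in this way for 2.01% of all probe sets. Muc1, a mucin that carries galectin ligands, was next by p, with a difference of 0.28 (limma adjusted p = 0.998). The list's median was 0.14.

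Of 25 measured enzymes of N-glycan branching and N-acetyllactosamine synthesis (of 30), which build galectin ligands, limma called 0 at 2 h in either fit. An unadjusted p under 0.05 was found for 2 of them without the block and for 5 with it. Over all probe sets the share was 4.65% without the block and was not counted with it, so the 5 cannot be set against a background. The galactosyltransferase B4galt5 was at 4.94 to 5.55 in 2 h samples, against 4.34 to 4.60 in non-wounded ones, a difference of 0.86 ± 0.19 (SE, limma adjusted p = 0.16). Its limma adjusted p was 0.0908 with the block and 0.0392 in the samples numbered 2 to 4 alone, and it reached 0.6 with quantile normalization. Mgat4b, which adds an N-glycan branch, differed by -0.38 (limma adjusted p = 0.854). The list had 17 members above 0 and a median of 0.16, beside 54.5% of all probe sets above 0 and a median of 0.025.

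Of 11 measured enzymes that cap galactose (of 14), 0 passed at 2 h with limma, and 2 had an unadjusted p under 0.05. Over all probe sets the shares were 0.241% and 4.65%. Gal3st1, which sulfates galactose on glycolipids, was at 6.48, 7.22, 7.06 and 7.27 in 2 h samples, against 8.65, 8.72, 8.10 and 7.84 in non-wounded ones. The groups did not overlap, as for the 2.73% of all probe sets that separated downward. The difference was -1.32 ± 0.33 (SE, limma adjusted p = 0.258, and 0.0668 with the block). St6gal1, whose sialic acid blocks binding of several galectins, differed by -0.47 ± 0.19 (SE, limma adjusted p = 0.855). The list had 5 members above 0 and 6 below, with a median of -0.019, beside 0.025 over all probe sets.

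At 30 min 0 members of these 3 lists passed with limma. The smallest p were those of Gal3st1 (a difference of -1.43) and St6gal1 (-0.73) among capping enzymes, and of Fgfr1, a growth factor receptor (1.00), and the surface glycoprotein Bsg (-0.62) among partners. The branching enzyme Mgat5 (0.49) and B3gnt3, which extends lactosamine chains (0.87), led the synthesis list. Each had a limma adjusted p of 0.735, and Fgfr1 stood at 5.90 and 4.35 in the 30 min samples, with the second inside the non-wounded range of 3.93 to 4.41. Without 30 min replicate 2, where 5.94% of all probe sets passed, Fgfr1, B3gnt3 and Gal3st1 passed too. List medians in the fit of all samples were -0.046 for partners, 0.0067 for synthesis and -0.073 for capping, beside 0.038 over all probe sets.

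For 2 h against 30 min, 0 members passed either. Havcr2 differed by 0.75 and B4galt5 by 1.15 (limma adjusted p = 0.621 and 0.475). The differences of Fgfr1 (-0.70), B3gnt3 (-0.82), St3gal3 (-0.61) and Gal3st2 (-0.35), the next by p in their lists, each had a limma adjusted p of 0.98. The last 2 genes transfer sialic acid and sulfate to galactose.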

How the data were processed

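Total RNA was made into biotin-labelled cRNA for single-colour arrays, per the labels' protocols. The authors deposited 1 table of log2 values for 1246 probe sets in 12 samples, made by RMA per the submitters' processing notes. The sources used here do not give its version, the array's name or any filter. Probe sets were named by matching RefSeq accessions without versions to the RefSeq table of GRCm38.p6 (962 matched). Promoter windows come from RefSeq on that build.

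The main test, limma 3.58.1 in R 4.3.3 (lmFit, eBayes), fitted 5 group means to the deposited values of 12 samples with no covariate. It was 2-sided, adjusted over 1246 probe sets, and tested on simulated data. Single samples were compared without a test. A list gene with several probe sets was represented by its brightest. Figures were drawn with matplotlib 3.10.9.

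Replicate numbers come from the titles. For numbers 1 to 4, deviations from the group means of 2 h and non-wounded samples correlated at 0.796, 0.449, 0.651 and 0.297 over the table. Samples of different numbers were not correlated for comparison, and the samples numbered 1, which differ in scale, are part of each group mean. These correlations therefore cannot show that the numbers 2 to 4 pair the samples. A fit with the number as a block was set beside the main one as an alternative. The other alternatives were a second quantile normalization, centring on medians, a common median and SD for every sample, omission of the dimmest 25% of probe sets, a prior that follows intensity and is robust, only the samples numbered 2 to 4, and omission of each sample in turn. The number of arrays limits the precision. The members and lists were chosen with earlier results of these data known. By rule, all galectins were named, with the list members that passed or else the 2 of smallest p in each list and comparison, and the 3 nearest profiles of Lgals1 and Lgals7.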

Additional observations from a re-analysis of the deposited data

Results flagged for a closer look

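Among 16 sets of 4 samples (8 galectins in the 2 h and the non-wounded group), 3 held a sample far from the rest by Dixon's test at its 95% limit. Chance gives about 1 in 20 for independent sets, but these sets share their arrays, so that rate cannot be applied to the 3. The share of all probe sets flagged by this rule was not counted. All 3 flags fell on 1 array, the 2 h sample numbered 1. It had a log2 value of 11.26 for Lgals7, with the nearest of the other 2 h samples at 12.27. For Lgals3 it had 10.18, with the nearest at 11.54, and for Lgals8 5.92, with the nearest at 7.21. Without this sample the 2 h differences from non-wounded were 0.20 for Lgals7, 0.45 for Lgals3 and 0.49 for Lgals8, none called by limma (adjusted p = 0.999 each).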

How the results depend on the processing

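The count of galectins past the test was 0 in each of the 3 comparisons under every alternative run, and Lgals1 kept its direction at 30 min (-1.57 to -0.85) and at 2 h against 30 min (1.06 to 1.65) in all of them. The changes of sign below concern values that did not pass in the fit of all 12 samples. With the replicate block the differences at 30 min against non-wounded were 0.11 for Lgals3, 0.30 for Lgals8 and -0.011 for Lgals12, and those at 2 h against 30 min -0.0084 for Lgals3, -0.16 for Lgals8, 0.16 for Lgals4 and -0.094 for Lgals9; among the named genes the block changed 1 call, that of Havcr2 at 2 h, and 1 keratinocyte and 1 Langerhans list marker also passed with it at 2 h. After samples were brought to a common median and SD they were 0.24 for Lgals7 and -0.050 for Lgals2 at 2 h against non-wounded, 0.45, 0.75, 0.072, -0.12 and -0.11 for Lgals7, Lgals3, Lgals8, Lgals12 and Lgals2 and 0.15 for Bsg at 30 min, -0.21, -0.40 and 0.060 for Lgals7, Lgals3 and Lgals2 at 2 h against 30 min, and 0.90 for Lgals3 at 4 h, which as deposited had met the limit downward. With quantile normalization they were -0.018 for Lgals2 at 2 h, 0.076, 0.42, 0.30, -0.17 and -0.086 for Lgals3, Lgals8, Lgals4, Lgals12 and Lgals2 at 30 min, and -0.061 and 0.068 for Lgals8 and Lgals2 at 2 h against 30 min. With median centring they were -0.0073 for Lgals2 at 2 h and -0.069 for Lgals12 at 30 min. In the samples numbered 2 to 4 alone they were 0.12 for Lgals7 at 2 h, -0.22 for Lgals12 at 30 min, and 0.039, -0.36, 0.070, 0.0088 and 0.072 for Lgals4, Lgals9, B3gnt3, St3gal3 and Gal3st2 at 2 h against 30 min; there Havcr2 and B4galt5 passed at 2 h against non-wounded (limma adjusted p = 0.0258 and 0.0392). Against the non-wounded sample of the same number, 1 galectin met the limit at 0 h or 4 h in place of 2. Over all probe sets the count called at 2 h against non-wounded was 3, beside 17 with the block, 7 with quantile normalization, 0 with median centring, 8 with a robust prior that follows intensity and 38 in the samples numbered 2 to 4. It was 11 without 2 h replicate 1 and 0 without any other 1 of the 8 samples compared. At 2 h against 30 min it was 0, and 9 without 2 h replicate 1, 3 without 30 min replicate 2, 2 with quantile normalization, 2 in the samples numbered 2 to 4 and 1 with a common median and SD. The cause of these shifts was not tested.

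With 1 sample left out, the ranges that crossed 0 at 2 h against non-wounded were -0.19 to 0.45 for Lgals3, -0.28 to 0.49 for Lgals8, -0.14 to 0.20 for Lgals7, -0.20 to 0.25 for Lgals1 and -0.53 to 0.073 for Lgals9. At 30 min they were -0.19 to 0.24 for Lgals12, -0.74 to 0.38 for Lgals8, -1.08 to 0.0052 for Lgals7, -0.62 to 0.26 for Lgals3, -1.28 to 0.23 for Lgals9 and -0.13 to 1.86 for B3gnt3. At 2 h against 30 min they were -0.057 to 1.03 for Lgals7, -0.16 to 0.72 for Lgals3, -0.23 to 0.89 for Lgals8, -0.15 to 0.11 for Lgals4, -0.52 to 0.99 for Lgals9, -1.47 to 0.072 for Fgfr1, -1.81 to 0.18 for B3gnt3, -1.39 to 0.16 for St3gal3 and -0.76 to 0.066 for Gal3st2. Without 30 min replicate 2, where the lone 30 min sample is numbered 1 and assumed to vary like the others, Fgfr1 (1.77), B3gnt3 (1.86) and Gal3st1 (-2.11) passed at 30 min with limma and 74 probe sets passed in all. Of the 7 steps of the resting order, 4 or 5 had ranges that did not overlap. Each run ordered the galectins anew by its own means, so the steps need not join the same pairs. Lgals1 was above Lgals8 in 2 of the 4 non-wounded samples, so this count does not show that the order of the middle group held. With no detection call, signal over background cannot be set for Lgals12 and Lgals2.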
